A study of Mus musculus with 48 samples.

Results

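The genes described here are 32 members of the unfolded protein response and the integrated stress response. They were taken by name from the 12393 genes measured in whole lungs of mice, with the probe set of highest mean signal standing for each gene, and all 32 were found. They fall into 13 genes of chaperones and protein folding, 7 genes of the degradation of misfolded endoplasmic reticulum proteins, and 8 genes that are Atf4 or its known targets. The remaining 4 are called sensor genes here, namely the sensors Ern1, Atf6 and Eif2ak3, and Xbp1, on which Ern1 acts. The 48 Affymetrix arrays are of lungs of male C57BL/6 mice, in 6 groups of 8 that the labels call biological replicates. DIO mice, the diet-induced obese animals, ate a chow with 60% of calories from fat from 6 weeks of age, for 9 weeks before exposure. RW mice, the regular-weight animals, ate a chow with about 5% of calories from fat. Both were 15 weeks old at the first exposure and breathed through the nose only, for 5 h daily in 8 sessions within 2 weeks, and lungs were taken the day after the last exposure. The air held mainstream cigarette smoke (DIO-MS and RW-MS), sidestream smoke (DIO-SS and RW-SS) or was filtered (the sham controls DIO-SC and RW-SC). All groups shared the nose-only procedure. The labels' husbandry text times the diet to a 4-day LPS study, although no sample is labelled with LPS. Diet and body weight go together in this design and cannot be told apart.

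The endoplasmic reticulum folds secreted and membrane proteins, and in the lung the surfactant-secreting alveolar type 2 cells and antibody-secreting plasma cells use it heavily. When unfolded proteins accumulate there, the sensors encoded by Ern1, Atf6 and Eif2ak3 are activated after translation. Ern1 splices the mRNA of the transcription factor Xbp1, Atf6 is cut to release a transcription factor, and together these raise chaperone and degradation genes. Eif2ak3 phosphorylates the initiation factor eIF2, which lowers translation in general while Atf4 protein is made more. Eif2ak3 is 1 of several eIF2 kinases, so Atf4 targets also answer to amino acid shortage and other stresses, the so-called integrated stress response. The arrays measured mRNA amounts, so neither splicing of Xbp1, cleavage of Atf6 nor phosphorylation was read out.

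Promoters from RefSeq (build GRCm38.p6), spanning 250 bases before to 50 after the start, were given for 28 of the 32 members. Manf, Hyou1, Derl1 and Atf6 were without an entry. The ER stress element, CCAAT followed by 9 bases of any kind and CCACG on either strand, is the sequence through which Atf6 and Xbp1 are known to act with the factor NF-Y. It occurred in 9 of these 28 promoters (Calr, Canx, Creld2, Derl3, Dnajc3, Hsp90b1, Hspa5, Pdia6 and Syvn1), and in 39 of all 32851 promoters of the table (0.119%). The 150 bases before the start of Hspa5 (chr2:34771940-34772089, plus strand) are shown first, because Hspa5 is the member that the results turn on most. Shorter stretches follow for the other folding genes that changed below, with 10 bases on each side of the match. Capitals mark the outer parts of the element, and CGTGG followed by ATTGG is the same element on the opposite strand. The places are chr8:84847065-84847103 (minus) for Calr, chr10:86705628-86705666 and chr10:86705523-86705561 (minus) for Hsp90b1, chr11:50325790-50325828 (minus) for Canx, chr12:17266481-17266519 (plus) for Pdia6 and chr15:88819510-88819548 (plus) for Creld2. Each sequence is written along its gene's own strand.
Hspa5: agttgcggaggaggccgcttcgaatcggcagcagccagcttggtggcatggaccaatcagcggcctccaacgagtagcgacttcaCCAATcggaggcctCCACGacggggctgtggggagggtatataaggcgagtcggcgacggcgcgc
Calr: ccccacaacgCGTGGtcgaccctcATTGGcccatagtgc
Hsp90b1: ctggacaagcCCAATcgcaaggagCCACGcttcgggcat
Hsp90b1, nearer the start: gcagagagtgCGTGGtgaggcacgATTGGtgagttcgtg
Canx: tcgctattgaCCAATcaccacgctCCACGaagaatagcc
Pdia6: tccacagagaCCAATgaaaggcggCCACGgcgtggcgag
Creld2: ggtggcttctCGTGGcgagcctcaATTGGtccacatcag

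A second set of motifs is shown for Herpud1, which was lower with mainstream smoke in both diets, and for targets of Atf4, the factor of the other arm. The ER stress element II, ATTGG, 1 base of any kind and CCACG, was found among the members in Herpud1 alone (chr8:94386367-94386397, plus) and in 12 promoters of the whole table (0.0365%). The composite element of C/EBP and ATF factors, TGATG, 1 base of any kind and AA on either strand, to which Atf4 can bind, occurred in Asns, Atf3, Chac1, Herpud1 and Trib3, that is in 4 of the 8 genes of the Atf4 group. It also occurred in 1304 promoters of the table (3.97%), so it is common. The composite elements shown are at chr1:191183426-191183453 (minus) for Atf3, chr2:119351039-119351066 (plus) for Chac1, chr6:7693215-7693242 (minus) for Asns and chr8:94386307-94386334 (plus) for Herpud1, with the element in capitals. A match is a run of letters and does not show that a factor was bound in these lungs.
Herpud1, element II: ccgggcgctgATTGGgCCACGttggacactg
Herpud1, composite: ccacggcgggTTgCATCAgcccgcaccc
Atf3, composite: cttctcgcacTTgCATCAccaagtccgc
Chac1, composite: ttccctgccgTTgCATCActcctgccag
Asns, composite: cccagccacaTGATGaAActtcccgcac

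The arrays of 43 animals each correlated with the other arrays at a mean Pearson r of 0.987 or more over all genes. The remaining 5 stood apart, at 0.963 to 0.982. They were DIO-MS-1, DIO-MS-6, DIO-SC-3, DIO-SC-7 and RW-SS-6. The members' calls are also given without them, as are the counts of gene lists that changed much. DIO-MS-1 and DIO-MS-6 had a mean log2 signal of the 6 interferon-induced genes of 12.3 and 12.1, against 7.66 to 8.02 on the other DIO-MS arrays. DIO-SC-3 carried skeletal muscle markers (mean 13.4, against 6.07 to 7.32 on the DIO-SC arrays that did not stand apart). It also carried squamous epithelium markers (11.7, against 5.30 to 6.32) and fat markers (9.98, against 5.17 to 6.79). Against those same arrays, DIO-SC-7 carried thymocyte markers (11.7, against 5.75 to 6.35), fat markers (12.5, against 5.17 to 6.79) and cycling markers (10.4, against 6.25 to 6.52). RW-SS-6 carried fat markers (12.4, against 5.10 to 6.94 on the other RW-SS arrays). Plasma cell markers were also higher on DIO-SC-7 (9.46, against 7.97 to 8.62) and on RW-SS-6 (9.38, against 8.17 to 8.85). Markers of lung were high on every array, with the alveolar type 2 list at means of 12.5 to 13.3. In whole lung, fewer cells of a type and less RNA per cell cannot be told apart. Differences are log2 signals of the first group minus the second, with limma's standard error (SE), and a gene was called where its p adjusted over all 12393 genes was below 0.05. The p-values rest on the spread between animals of the same group, pooled for each gene over all 6 groups. Leaving out arrays can therefore change p-values and calls also in comparisons that do not use those arrays. Values are log2 signals, and a probe set's level says nothing about another gene's level.

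Under filtered air, 4 of the 13 folding genes were higher in DIO-SC lungs than in RW-SC lungs and none was lower. These were Hspa5, which encodes the main Hsp70 chaperone of the endoplasmic reticulum, Manf, a secreted factor that binds it, Creld2, a disulfide isomerase of the same compartment, and Dnajb9, a co-chaperone of Hspa5. Among the Atf4 targets Chac1, which encodes an enzyme that degrades glutathione, was lower. In all, 5 of 32 members were called (4 higher, 1 lower), while 8.28% of all genes were called, 2.29% higher and 5.99% lower. No gene of degradation and no sensor was called.

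Hspa5 (chromosome 2, 34772090 to 34776529) read 12.15, 12.47 and 12.68 in DIO-SC lungs (lowest, median and highest of 8), against 12.03, 12.20 and 12.35 in RW-SC lungs. The groups overlapped through DIO-SC-7, which gave the lowest DIO-SC value, while 7 of 8 DIO-SC arrays lay above every RW-SC array. The difference was 0.30 ± 0.07 (SE), or 1.23-fold, with an adjusted p of 0.0059. The second probe set of Hspa5 gave 0.42. Manf (chromosome 9, 106888753 to 106891938) read 11.09, 11.33 and 11.63 in DIO-SC lungs, against 10.72, 10.98 and 11.11 in RW-SC lungs. Here too 7 of 8 DIO-SC arrays lay above all RW-SC arrays, and the difference was 0.42 ± 0.08, or 1.34-fold (adjusted p 0.000347). Creld2 was higher by 0.27 ± 0.07 (adjusted p 0.014) and Dnajb9 by 0.22 ± 0.06 (adjusted p 0.0174), with 5 of 8 DIO-SC arrays beyond the RW-SC range for each. Chac1 was lower (-0.29 ± 0.09), as 7.11, 7.34 and 7.74 in DIO-SC lungs against 7.34, 7.65 and 7.87 in RW-SC lungs. Its call (adjusted p 0.0462) held in 34 of the 48 fits that each left out 1 array.

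The folding genes had a median difference of 0.11 and 11 of 13 lay above 0, while the median over all genes was -0.03. Without the 5 arrays, the 5 calls held and Atf4 (0.17), Ddit3 (0.25), Dnajc3 (0.20) and Herpud1 (0.19) were called higher as well. The share of all genes called was then 9.55%. Cytosolic heat shock genes, which answer to a separate regulator, moved with these genes. All 7 of that list were higher in DIO-SC lungs (median difference 1.07), and their mean signal per array ran from 11.4 to 12.1 in DIO-SC lungs, against 10.3 to 10.6 in RW-SC lungs. B cell markers were lower (6 of 7 called, median -0.92), and 2 of 8 plasma cell markers were lower with 0 higher (4 lower without the 5 arrays). The part of these lists in the result was not tested. Of 81 other genes of the same pathways, 3 were higher and 2 lower, or 6.17% called against 8.28% of all genes. Without the 5 arrays 6 were higher and 1 lower. Slc38a2, an amino acid transporter and Atf4 target, was the largest at 0.58 ± 0.07 (adjusted p 1.76e-08), followed by Iars, the isoleucyl-tRNA synthetase (0.27).

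**Figure D1:**
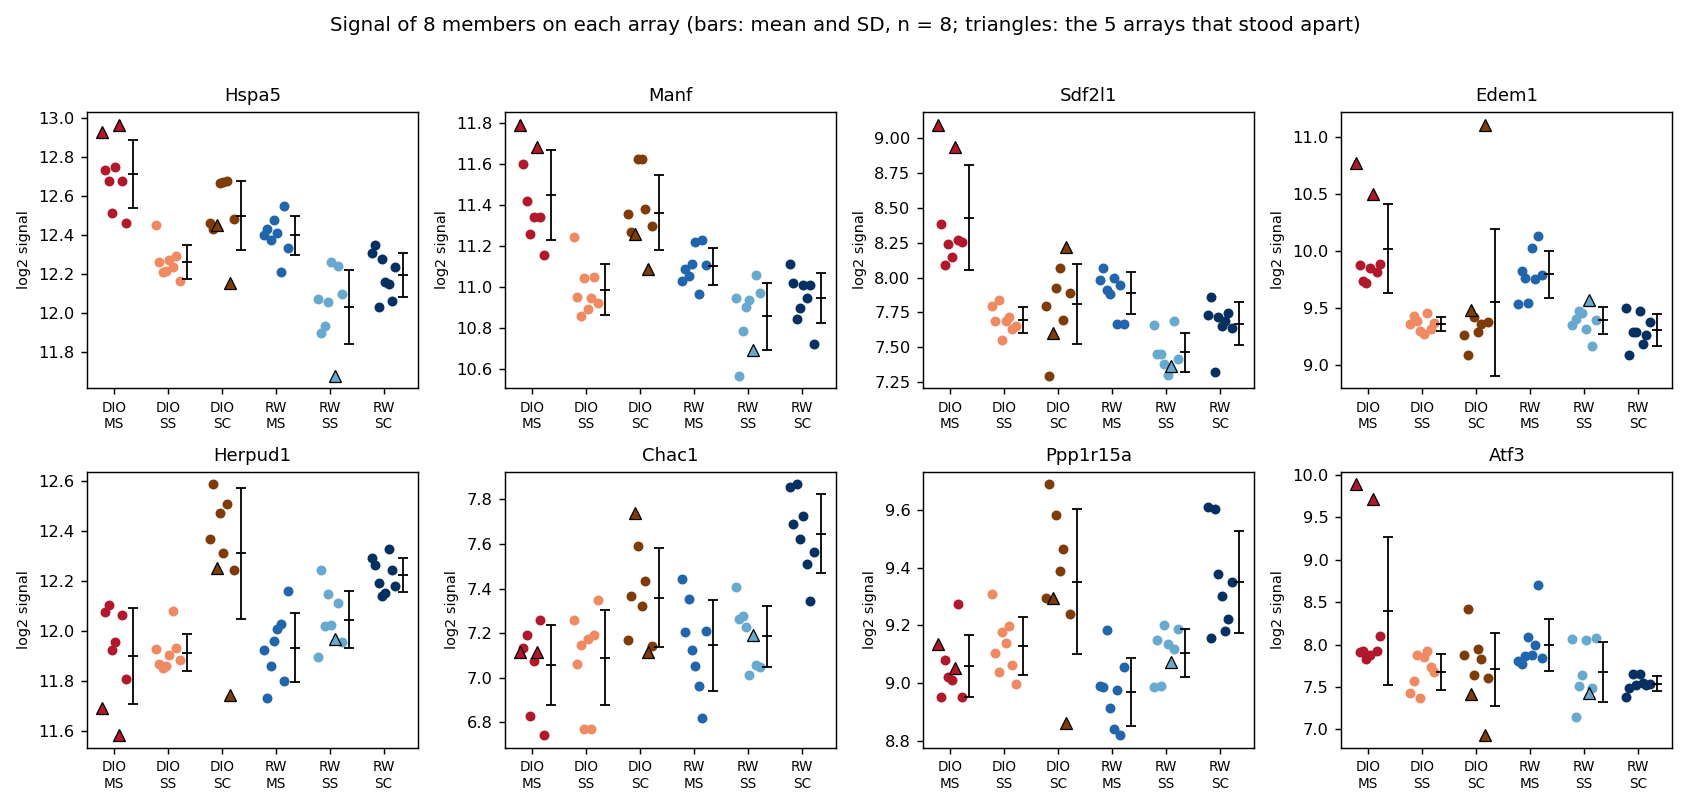
Log2 signal (vertical axes) of 8 members on each of the 48 arrays, by group (horizontal axes), with the group mean and SD (n = 8) as bars and the 5 arrays that stood apart as triangles. Hspa5 and Sdf2l1 sit above their sidestream range on all 8 DIO-MS arrays, Chac1 and Herpud1 have their highest means in the filtered-air groups, and the high Atf3 values in DIO-MS come from DIO-MS-1 and DIO-MS-6.

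Mainstream smoke was followed by lower Herpud1, Chac1 and Ppp1r15a and higher Edem1 and Derl1 in both diets, with Hsp90b1 higher as well. Herpud1 encodes a membrane protein of the degradation machinery, Ppp1r15a the phosphatase subunit that reverses eIF2 phosphorylation, Edem1 a lectin that hands misfolded glycoproteins to degradation, and Derl1 a part of the channel through which they leave. Hsp90b1 encodes the endoplasmic reticulum form of Hsp90. In DIO-MS against DIO-SC lungs 15 of 32 members were called, 12 higher and 3 lower, while 21.4% of all genes were called (11.7% higher, 9.76% lower). In RW-MS against RW-SC lungs 6 of 32 (18.8%) were called, 3 higher and 3 lower, while 14.7% of all genes were called (6.61% higher, 8.07% lower). The share of members called in the RW diet was thus near that of all genes. So was the share called lower in each diet.

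Edem1 (chromosome 6, 108824045 to 108859356) read 9.72, 9.86 and 10.77 in DIO-MS lungs, against 9.09, 9.37 and 11.11 in DIO-SC lungs, a difference of 0.47 ± 0.16 (adjusted p 0.0272). The overlap came from DIO-SC-7 at 11.11, while the other DIO-SC arrays lay between 9.09 and 9.48. In RW animals it read 9.53, 9.78 and 10.13 in RW-MS lungs, against 9.09, 9.29 and 9.50 in RW-SC lungs. These groups did not overlap, and the difference was 0.49 ± 0.16, or 1.40-fold (adjusted p 0.0313). With the 5 arrays left out, the differences were 0.51 in the DIO diet (adjusted p 9.56e-07) and 0.49 in the RW diet (adjusted p 1.44e-07). No RW-MS or RW-SC array is among the 5, so in the RW diet the pooled spread changed and the difference did not. A second probe set of Edem1 gave less, 0.08 in DIO and 0.25 in RW lungs.

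Herpud1 (chromosome 8, 94386429 to 94395371) read 11.58, 11.94 and 12.10 in DIO-MS lungs, against 11.74, 12.34 and 12.59 in DIO-SC lungs. It read 11.73, 11.94 and 12.16 in RW-MS lungs, against 12.14, 12.22 and 12.33 in RW-SC lungs. The groups overlapped in the DIO diet, where 2 of 8 DIO-MS arrays lay below the DIO-SC range, and nearly separated in the RW diet, where 7 of 8 RW-MS arrays lay below the RW-SC range. The differences were -0.41 ± 0.08 in DIO lungs (1.33-fold, adjusted p 7.8e-05) and -0.29 ± 0.08 in RW lungs (1.22-fold, adjusted p 0.00776). Its second probe set gave -0.46 and -0.29. Herpud1 was thus lower in both diets, while Edem1 and Derl1, which belong to the same degradation pathway, were higher.

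Chac1 (chromosome 2, 119351242 to 119354326) read 6.74, 7.12 and 7.26 in DIO-MS lungs, against 7.11, 7.34 and 7.74 in DIO-SC lungs, and 3 of 8 DIO-MS arrays lay below every DIO-SC array. The difference was -0.30 ± 0.09 (adjusted p 0.0159). In the RW diet it was -0.50 ± 0.09 (1.41-fold, adjusted p 0.000156), as 6.82, 7.16 and 7.44 in RW-MS lungs against 7.34, 7.65 and 7.87 in RW-SC lungs, with 6 of 8 RW-MS arrays below every RW-SC array. Chac1 was also lower in DIO-SC than in RW-SC lungs, and that comparison shares the air-exposed animals with both of these. Ppp1r15a (chromosome 7, 45522917 to 45526268) differed by -0.29 ± 0.07 in DIO lungs (adjusted p 0.0033) and by -0.38 ± 0.07 in RW lungs (adjusted p 0.00033). It read 8.95, 9.04 and 9.27 in DIO-MS lungs against 8.86, 9.34 and 9.69 in DIO-SC lungs, and the groups overlapped. DIO-SC-7 gave the lowest DIO-SC value, but DIO-MS-7 at 9.27 also lay above DIO-SC-8 at 9.24. Its values were 8.82, 8.98 and 9.18 in RW-MS lungs against 9.16, 9.33 and 9.61 in RW-SC lungs, with 7 of 8 RW-MS arrays below the RW-SC range. Among the other Atf4 targets, Asns, Trib3 and Sesn2 were called in neither diet.

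Derl1 was higher by 0.19 ± 0.06 in DIO-MS lungs (adjusted p 0.00788) and by 0.23 ± 0.06 in RW-MS lungs (adjusted p 0.00287). Its chosen probe set is of a type that can match several transcripts, and 2 of the other Derl1 probe sets gave -0.03 and -0.08 in the RW diet. Hsp90b1 was higher by 0.22 ± 0.07 in DIO-MS lungs (adjusted p 0.0288). It was higher by 0.21 ± 0.07 in RW-MS lungs (adjusted p 0.0483, held in 18 of 48 fits with 1 array left out), where its second probe set gave -0.00.

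With all arrays, more folding genes were called in the DIO diet. Of 13, 8 were higher in DIO-MS than in DIO-SC lungs and 0 lower (median 0.21), against 1 higher and 0 lower between RW-MS and RW-SC lungs (median 0.10). Sdf2l1 (chromosome 16, 17130138 to 17132383), which encodes a partner of endoplasmic reticulum co-chaperones, read 8.09, 8.26 and 9.10 in DIO-MS lungs, against 7.30, 7.85 and 8.22 in DIO-SC lungs. The difference was 0.62 ± 0.11, or 1.53-fold (adjusted p 2.79e-05), with 6 of 8 DIO-MS arrays beyond the DIO-SC range. Hspa5 read 12.46, 12.71 and 12.97 in DIO-MS lungs against 12.15, 12.47 and 12.68 in DIO-SC lungs, a difference of 0.21 ± 0.07 (adjusted p 0.0294). For Hspa5 as for Calr below, 5 of 8 DIO-MS arrays lay above the DIO-SC range and the rest overlapped it. The lectin chaperone Calr read 13.14, 13.22 and 13.51 in DIO-MS lungs, against 12.90, 13.02 and 13.20 in DIO-SC lungs, a difference of 0.24 ± 0.06 (adjusted p 0.00158). The remaining folding genes called were Canx, the membrane-bound partner of Calr (0.19), the disulfide isomerases Pdia3 (0.23) and Pdia6 (0.23), Creld2 (0.23) and Hsp90b1. Derl2, a relative of Derl1, was higher by 0.25 ± 0.06 (adjusted p 0.00342).

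This DIO pattern rested in large part on the 5 arrays. For 17 of the 32 members DIO-MS-1 lay above all 6 DIO-MS arrays that did not stand apart, and likewise DIO-MS-6 for 17, while DIO-SC-7 lay below all 6 such DIO-SC arrays for 23. Atf3, a stress-induced transcription factor downstream of Atf4, read 9.89 on DIO-MS-1 and 9.72 on DIO-MS-6, against 7.83 to 8.10 on the other DIO-MS arrays. Its call (0.69 ± 0.22, adjusted p 0.0178) was lost when either array was left out. Without the 5 arrays 9 of the 15 calls were lost (Atf3, Calr, Canx, Creld2, Derl2, Hsp90b1, Hspa5, Pdia3 and Pdia6), while 18.0% of all genes were called. Of those lost, Atf3 stood at 0.04, Creld2 at 0.05, Pdia6 at 0.06 and Hspa5 at 0.07, while Canx (0.15, adjusted p 0.0512), Calr (0.17, adjusted p 0.0623) and Hsp90b1 (0.17, adjusted p 0.198) kept more of their size. The 6 that held were Sdf2l1 (0.45), Edem1 (0.51), Derl1 (0.22), Herpud1 (-0.43), Chac1 (-0.30) and Ppp1r15a (-0.39). Lower Atf4 (-0.28), Ddit3 (-0.33) and Xbp1 (-0.18) were then called in addition. All 6 calls of the RW diet held, where 24.3% of all genes were called without the 5 arrays. Atf3 (0.45), Hspa5 (0.20) and Sdf2l1 (0.22) were then called higher and Atf4 (-0.15) lower. Their differences were the same as with all arrays, since no RW-MS or RW-SC array was left out and the pooled spread alone changed. Of the folding genes, 1 was then called in the DIO diet and 3 in the RW diet.

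Whether mainstream smoke acted differently in DIO and RW animals was tested directly. No member was called, with a lowest adjusted p of 0.0966, while 0.888% of all genes were called, and none was called without the 5 arrays either. At an unadjusted p below 0.05 there were 3, namely Sdf2l1 (0.40), Pdia3 (0.30) and Sesn2 (-0.19), and limma with a trended and robust prior called 0. The larger count of folding genes in the DIO diet is therefore not shown to be a different response.

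**Figure D2:**
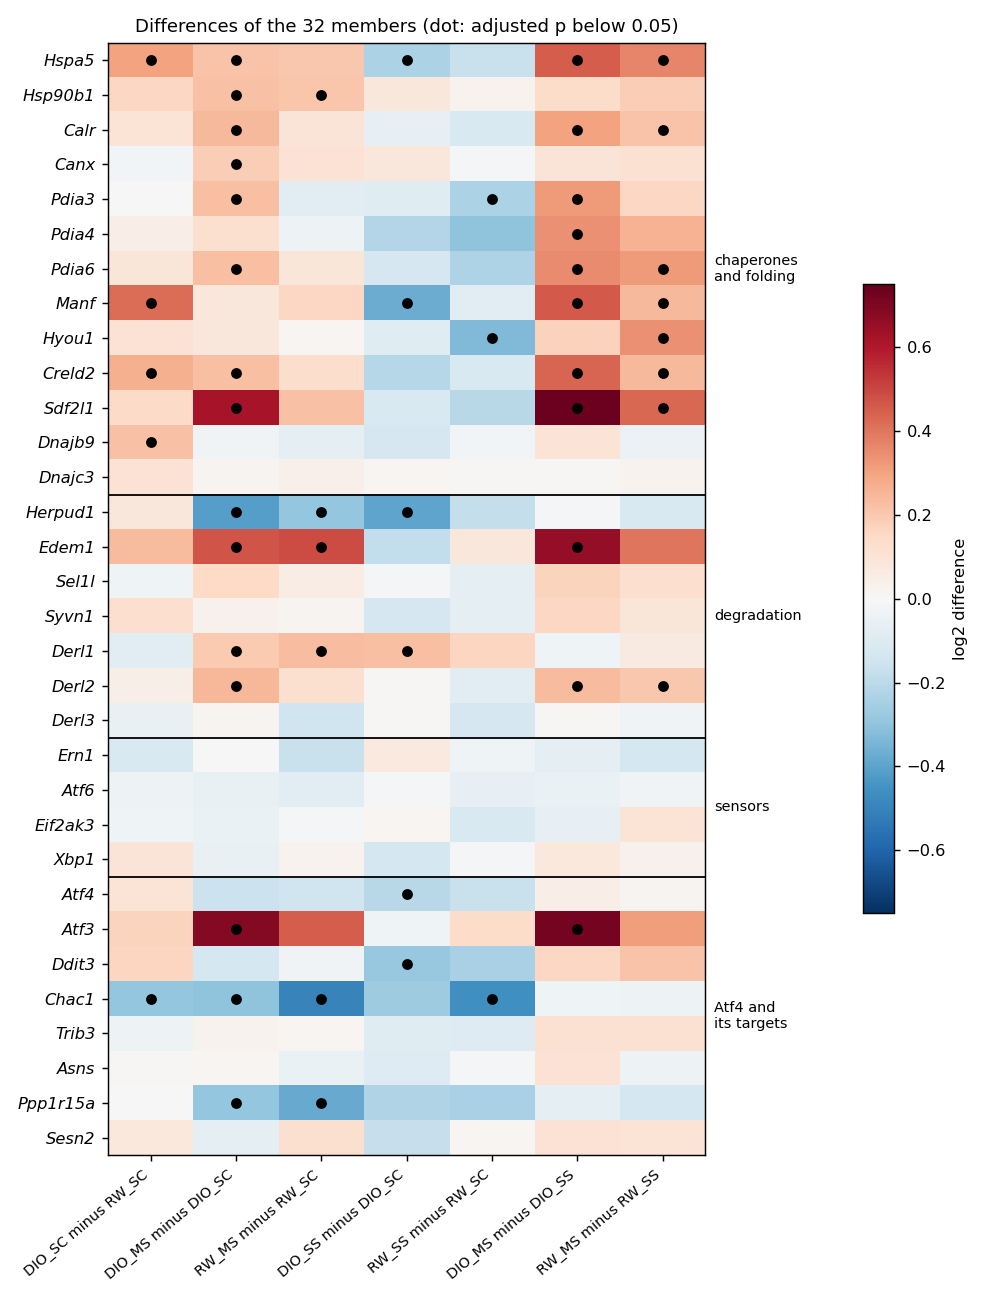
Log2 differences (colour, scale at right) of the 32 members (rows, by role) in 7 comparisons (columns), with a dot where the adjusted p was below 0.05. Folding genes are mostly red in the mainstream against sidestream columns, Herpud1, Chac1 and Ppp1r15a are blue in both mainstream against filtered air columns, and the 4 sensors carry no dot.

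Other lists moved with mainstream smoke. All 4 markers of cycling cells were higher in both diets (median 1.23 in DIO and 1.25 in RW lungs). Of 6 interferon-induced genes, 5 were higher in DIO lungs (median 1.37), and 1 of 6 without the 5 arrays. Of the 7 heat shock genes, 6 were lower in DIO-MS than in DIO-SC lungs (median -0.64) and 1 was lower in RW-MS than in RW-SC lungs. Markers of several cell types moved too. Of 7 alveolar macrophage markers, 3 were higher and 2 lower in each diet, with differences from -2.78 to 1.64 in DIO and from -2.33 to 1.98 in RW lungs. B cell markers were lower in RW-MS lungs (5 of 7, median -0.40), while 1 of 7 was higher in DIO-MS lungs. Endothelial markers were lower for 1 of 5 in DIO and 3 of 5 in RW lungs (medians -0.26 and -0.33), and for 4 and 5 without the 5 arrays. Alveolar type 1 markers were lower for 2 of 5 in DIO, with 1 higher, and for 3 of 5 in RW lungs. Of 6 alveolar type 2 markers 3 were higher in DIO-MS lungs (median 0.27) and 1 was higher and 2 lower in RW-MS lungs. The part of these lists in the members' differences was not tested.

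Of 81 further genes of these pathways, 20 were higher and 4 lower in DIO-MS lungs, or 29.6% called against 21.4% of all genes. In RW-MS lungs 9 were higher and 2 lower, or 13.6% against 14.7% of all genes, a share near that of all genes. The counts without the 5 arrays were 9 higher and 6 lower in DIO, and 13 higher and 4 lower in RW lungs. Of all genes 18.0% and 24.3% were then called, so that both counts were near the shares of all genes. Slc7a11, the cystine importer and an Atf4 target, was higher by 0.83 ± 0.17 in DIO (adjusted p 0.000266) and by 0.62 ± 0.17 in RW lungs (adjusted p 0.0103). Its only probe set was dim, with a mean log2 signal of 4.71, at percentile 10.1 of all genes. Mthfd2, a mitochondrial folate enzyme and Atf4 target, was higher by 0.62 in DIO and 0.42 in RW lungs. Creb3l1, a relative of Atf6, was higher (0.61 in DIO and 0.41 in RW lungs), and Atf5, a factor translated like Atf4, was lower (-0.53 and -0.47). Ddit4, an inhibitor of mTORC1 and Atf4 target, was called in RW lungs (0.45). Eif2ak2, an eIF2 kinase that is itself induced by interferon, was called in DIO lungs (0.70) but not without the 5 arrays (0.20). Known Atf4 targets thus moved both ways, as Slc7a11 and Mthfd2 were higher, Chac1 and Ppp1r15a were lower and Asns was not called. Of 21 other folding genes, 10 were higher and 0 lower in DIO, and 3 were higher and 1 lower in RW lungs. With the 5 arrays left out, 3 were higher in DIO, and 4 were higher and 1 lower in RW lungs.

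With sidestream smoke, 18.8% of the members were called in the DIO diet and 9.38% in the RW diet, and most of these calls were decreases. In DIO-SS against DIO-SC lungs 6 of 32 members were called. Hspa5, Manf, Herpud1, Atf4 and Ddit3 were lower and Derl1 was higher, while 6.85% of all genes were called, 4.26% higher and 2.59% lower. In RW-SS against RW-SC lungs 3 of 32 were called, all lower (Pdia3, Hyou1 and Chac1), while 2.17% of all genes were called and 1.48% were lower. Hyou1 encodes a large chaperone of the endoplasmic reticulum, and Ddit3 a transcription factor induced by Atf4.

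Manf read 10.86, 10.95 and 11.24 in DIO-SS lungs, against 11.09, 11.33 and 11.63 in DIO-SC lungs. The difference was -0.37 ± 0.08 (1.30-fold, adjusted p 0.00147), and 7 of 8 DIO-SS arrays lay below the DIO-SC range. Herpud1 read 11.85, 11.89 and 12.08 in DIO-SS lungs, a difference of -0.40 ± 0.08 (adjusted p 0.000716). No DIO-SS array lay below the lowest DIO-SC array, which was DIO-SC-7 at 11.74, while the other DIO-SC arrays began at 12.24. Hspa5 was lower, at -0.24 ± 0.07 (adjusted p 0.0381), as 12.16, 12.25 and 12.45 in DIO-SS lungs. Ddit3 was lower, at -0.28 ± 0.08 (adjusted p 0.0223) and Atf4, at -0.21 ± 0.06 (adjusted p 0.0262), although the other probe sets of Atf4 gave 0.15 and 0.02. Derl1 was higher by 0.23 ± 0.06 (adjusted p 0.00749), with 2 of its other probe sets at -0.07 and -0.03. When the 5 arrays were left out, all 6 calls held and Creld2 (-0.27), Pdia6 (-0.23), Ppp1r15a (-0.31), Sesn2 (-0.22) and Xbp1 (-0.21) were called lower. Of all genes, 9.23% were then called.

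Chac1 read 7.01, 7.21 and 7.41 in RW-SS lungs, against 7.34, 7.65 and 7.87 in RW-SC lungs, and 7 of 8 RW-SS arrays lay below the RW-SC range. The difference was -0.46 ± 0.09 (1.38-fold, adjusted p 0.003). Chac1 was therefore lower with both kinds of smoke in the RW diet, and these differences share the RW-SC animals. Hyou1 read 8.93, 9.05 and 9.29 in RW-SS lungs, against 9.11, 9.37 and 9.71 in RW-SC lungs, a difference of -0.33 ± 0.09 (adjusted p 0.0397). Another of the Hyou1 probe sets gave 0.07. Pdia3 was lower, at -0.23 ± 0.07 (adjusted p 0.0431). The calls of Hyou1 and Pdia3 held in 37 and 39 of the 48 fits with 1 array left out, and that of Pdia3, which was lowest on RW-SS-6, was lost without the 5 arrays. Ddit3, Pdia4 and Ppp1r15a were then called lower, while 4.69% of all genes were called.

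Hspa5 and Manf were lower in DIO-SS than in DIO-SC lungs and higher in DIO-SC than in RW-SC lungs, and both comparisons use the DIO-SC animals. The 7 heat shock genes, all higher in DIO-SC than in RW-SC lungs, were all lower in DIO-SS than in DIO-SC lungs (median -0.78). Their mean signal per array ran from 10.7 to 11.1 in DIO-SS lungs, against 11.4 to 12.1 in DIO-SC lungs. Of the 7, 1 was lower in RW-SS than in RW-SC lungs. B cell markers were lower in RW-SS than in RW-SC lungs (5 of 7, median -0.55), while 1 of 7 was higher in DIO-SS lungs. The part of these lists in the members' decrease was not tested. The test of the diet difference under sidestream smoke called no member, with a lowest adjusted p of 0.255, while 0.654% of all genes were called. At an unadjusted p below 0.05 there were 2, Manf (-0.29) and Sesn2 (-0.19), and the trended and robust prior called 0. Without the 5 arrays Herpud1 (-0.34, adjusted p 0.0252) and Manf (-0.37, adjusted p 0.0464) were called, while 1.25% of all genes were called. Of the 81 further genes, 3 were higher and 4 lower in DIO-SS lungs, and 2 were higher and 2 lower in RW-SS lungs. That is 8.64% and 4.94% called, against 6.85% and 2.17% of all genes. On the other 43 arrays 2 were higher and 9 lower in DIO, and 3 were higher and 3 lower in RW lungs. Of all genes 9.23% and 4.69% were then called. Ddit4 was higher in RW-SS lungs (0.64 ± 0.10, adjusted p 6.54e-05). Nupr1, a stress-induced nuclear protein and Atf4 target, was higher in both, by 0.50 ± 0.08 in DIO (adjusted p 2.29e-05) and by 0.29 ± 0.08 in RW lungs (adjusted p 0.0348).

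About as many folding genes were called between the kinds of smoke in both diets. Of 13, 8 were higher in DIO-MS than in DIO-SS lungs (median 0.32) and 7 were higher in RW-MS than in RW-SS lungs (median 0.24), and none was lower in either diet. Over all members 11 of 32 were called between DIO-MS and DIO-SS, all higher, while 16.8% of all genes were called and 8.83% were higher. Between RW-MS and RW-SS 8 of 32 were called, all higher, while 9.77% of all genes were called and 6.05% were higher. Hspa5, Calr, Pdia6, Manf, Creld2, Sdf2l1 and Derl2 were higher in both diets, and these comparisons share no animal.

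Hspa5 had 12.46, 12.71 and 12.97 in DIO-MS lungs, against 12.16, 12.25 and 12.45 in DIO-SS lungs, and the groups did not overlap. The difference was 0.45 ± 0.07, or 1.37-fold (adjusted p 7.98e-06). In the RW diet Hspa5 had 12.21, 12.40 and 12.55 in RW-MS lungs, against 11.68, 12.07 and 12.26 in RW-SS lungs, and 7 of 8 RW-MS arrays lay beyond the RW-SS range. That difference was 0.37 ± 0.07, or 1.29-fold (adjusted p 0.000374), and the second probe set gave 0.48 in DIO and 0.42 in RW lungs.

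Sdf2l1 had 8.09, 8.26 and 9.10 in DIO-MS lungs, against 7.55, 7.69 and 7.84 in DIO-SS lungs. The groups did not overlap, and the difference of 0.73 ± 0.11 (1.66-fold, adjusted p 1.61e-06) was the largest among the members. In the RW diet Sdf2l1 had 7.67, 7.93 and 8.07 in RW-MS lungs, against 7.30, 7.43 and 7.69 in RW-SS lungs, a difference of 0.43 ± 0.11 (adjusted p 0.00674). Calr had 13.14, 13.22 and 13.51 in DIO-MS lungs, against 12.90, 12.94 and 13.04 in DIO-SS lungs, again with no overlap (0.30 ± 0.06, adjusted p 0.000136). It was higher by 0.22 ± 0.06 in RW lungs (adjusted p 0.0112). Edem1 had 9.72, 9.86 and 10.77 in DIO-MS lungs, against 9.28, 9.37 and 9.46 in DIO-SS lungs, without overlap (0.66 ± 0.16, adjusted p 0.00247).

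Manf was higher by 0.46 ± 0.08 in DIO (adjusted p 1.62e-05) and by 0.24 ± 0.08 in RW lungs (adjusted p 0.0354). Creld2 was higher by 0.44 ± 0.07 (adjusted p 1.12e-05) and 0.25 ± 0.07 (adjusted p 0.0215), and Pdia6 by 0.35 ± 0.08 (adjusted p 0.00113) and 0.32 ± 0.08 (adjusted p 0.00493). Hyou1 was called in RW lungs (0.34 ± 0.09, adjusted p 0.00946). In the DIO diet Pdia3 (0.32) and Pdia4 (0.34), another disulfide isomerase, were called, as was Atf3 (0.72 ± 0.22, adjusted p 0.0169). Further probe sets of Pdia4 and Pdia6, both dim, gave -0.12 and -0.05 in the DIO diet. With those 5 arrays removed, 9 of the 11 DIO calls held, Atf3 (0.25) and Pdia4 (0.20) being lost, while 12% of all genes were called. Hspa5 then stood at 0.37, Sdf2l1 at 0.54 and Edem1 at 0.45. All 8 RW calls held, and Ddit3 (0.21), Edem1 (0.43) and Pdia4 (0.24) were called as well, while 17.1% of all genes were called.

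**Figure D3:**
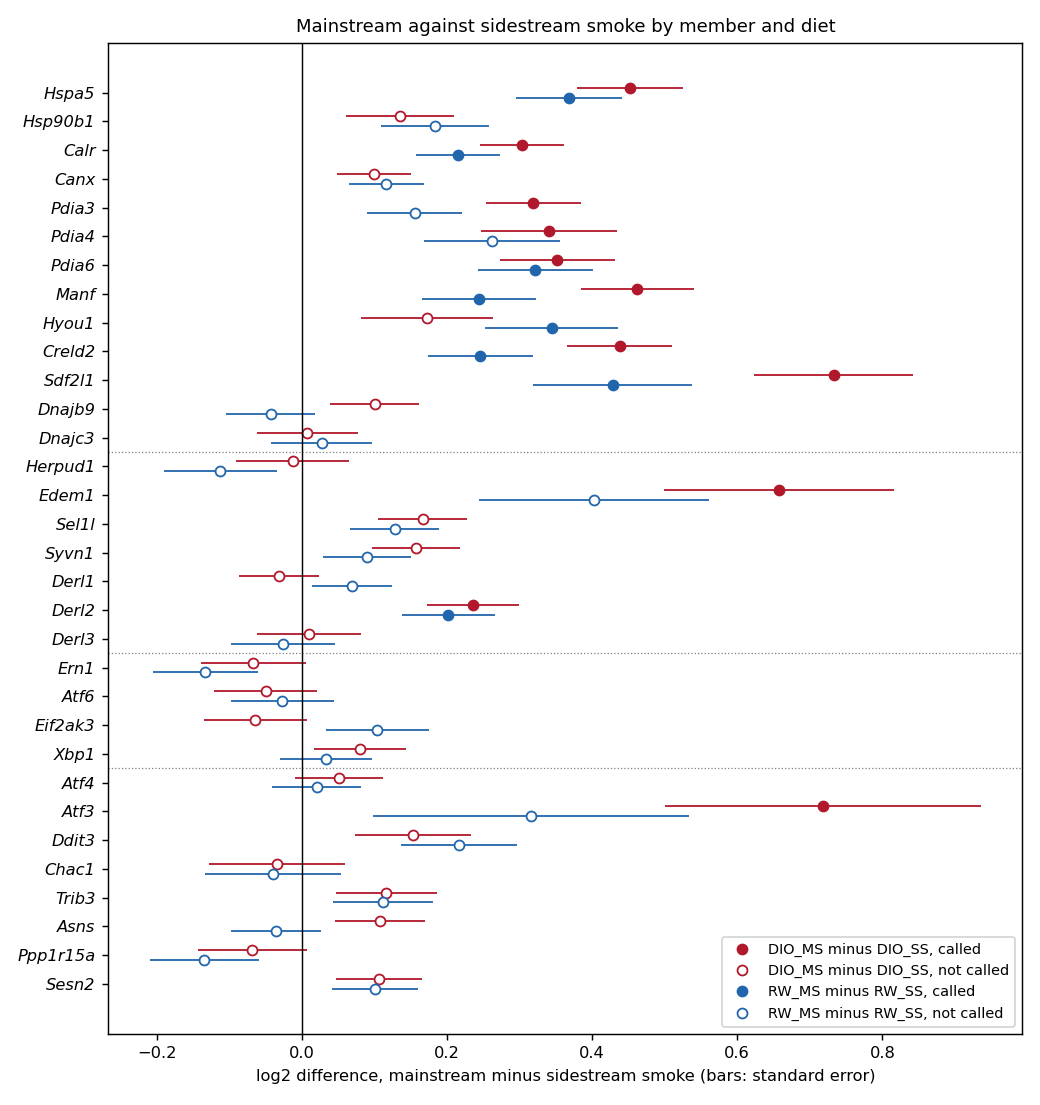
Log2 difference, mainstream minus sidestream smoke, with its SE (horizontal axis) for each member (rows, by role), for DIO animals in red and RW animals in blue, filled where called. Nearly all folding genes lie right of 0 in both diets, Sdf2l1 farthest at 0.73 in DIO and 0.43 in RW animals, while the sensors lie near 0.

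Fewer genes of the degradation and Atf4 groups than of the folding group were called between the kinds of smoke. The shares called were 28.6% of degradation genes and 12.5% of the Atf4 group in DIO, against 16.8% of all genes. In RW lungs they were 14.3% and 0%, against 9.77% of all genes. With so few genes these shares are not shown to differ from those of all genes. Of 7 degradation genes, 2 were higher in DIO-MS than in DIO-SS lungs (median 0.16) and 1 in RW-MS than in RW-SS lungs (median 0.09). Herpud1, lower with both kinds of smoke in the DIO diet, was called in neither. Of the 8 genes of the Atf4 group, 1 was higher in DIO (median 0.11) and 0 in RW lungs (median 0.06). Among 81 further genes, 21 were higher and 3 lower between DIO-MS and DIO-SS, and 15 were higher and 1 lower between RW-MS and RW-SS. That is 29.6% and 19.8% called, against 16.8% and 9.77% of all genes. Without the 5 arrays the counts higher and lower were 15 and 2 in DIO, and 15 and 3 in RW lungs. The shares of all genes called were then 12% and 17.1%. Psat1, a serine-synthesis enzyme, was higher by 0.79 ± 0.20 in DIO (adjusted p 0.00367) and 0.68 ± 0.20 in RW lungs (adjusted p 0.0208). Slc7a11, on its dim probe set, was higher by 0.88 in DIO and 0.59 in RW lungs, and Mthfd2 by 0.64 and 0.57. Cycling markers were higher in this comparison as well, with 4 of 4 called in DIO (median 1.07) and 2 of 4 in RW lungs (4 of 4 without the 5 arrays). Interferon-induced genes were higher for 4 of 6 in DIO (median 1.37) and 1 of 6 in RW lungs, and without the 5 arrays for 1 of 6 in DIO lungs (median 0.29). Alveolar type 2 markers were higher for 2 of 6 in DIO and 1 of 6 in RW lungs (2 without the 5 arrays). Of 7 alveolar macrophage markers, 2 were higher and 3 lower in DIO, and 3 were higher and 2 lower in RW lungs. Plasma cell markers were called for 0 of 8 in both diets. The part of the lists that moved was not tested.

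Members whose promoters hold the ER stress element were called higher in 4 of 9 cases in each of these comparisons, against 6 of 19 in DIO and 2 of 19 in RW lungs among members with a promoter but without the element. Leaving out the 5 arrays gave 4 of 9 against 4 of 19 in DIO and 4 of 9 against 5 of 19 in RW lungs. Between DIO-MS and DIO-SC the counts were 6 of 9 against 5 of 19 with all arrays, but 0 of 9 against 2 of 19 without the 5. Derl3, Dnajc3 and Syvn1 hold the element and were called in no comparison with all arrays, while Sdf2l1, the member with the largest difference, lacked it in this window. The element also goes together with role. Of the 9 members that hold it, all but Derl3 and Syvn1 are folding genes, while the 19 without it include the whole Atf4 group. The folding genes among those 19 are Pdia3, Pdia4, Sdf2l1 and Dnajb9, and the first 3 were called higher between DIO-MS and DIO-SS. These counts cannot separate the element from the role, and they describe the members only, since members were not chosen independently of the element's known targets.

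**Figure D4:**
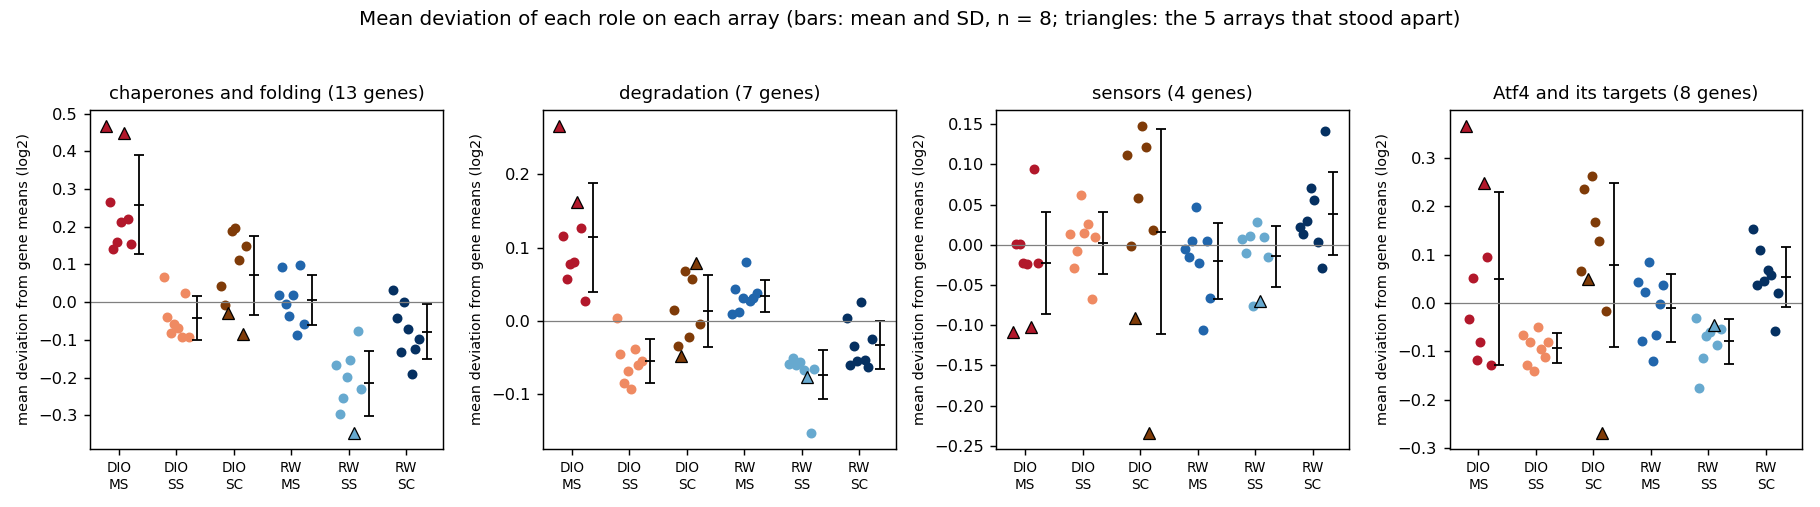
Mean deviation (log2, vertical axes) of the members of each role from their means over 48 arrays, for each array by group (horizontal axes), with group mean and SD (n = 8) as bars and the 5 arrays that stood apart as triangles. Folding genes run from 0.14 to 0.47 in DIO-MS and from -0.35 to -0.08 in RW-SS lungs, while the sensors stay between -0.23 and 0.15 in all groups.

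The mean deviation of the folding genes from their own means over all arrays sums up these levels. Its lowest, median and highest values were 0.14, 0.22 and 0.47 in DIO-MS, -0.09, -0.06 and 0.07 in DIO-SS, and -0.08, 0.08 and 0.20 in DIO-SC lungs. In the RW diet they were -0.09, 0.01 and 0.10 in RW-MS, -0.35, -0.22 and -0.08 in RW-SS, and -0.19, -0.08 and 0.03 in RW-SC lungs. DIO-MS thus had the highest median and RW-SS the lowest, and groups next to each other in the order of medians overlapped. DIO-MS and DIO-SS did not overlap, while RW-MS and RW-SS did, through RW-MS-6 and RW-SS-7. The Atf4 group was ordered differently, with medians of 0.10 in DIO-SC and 0.05 in RW-SC, -0.09 in DIO-SS and -0.06 in RW-SS, and 0.01 in both mainstream groups. The medians without the 5 arrays were -0.06 in DIO-MS and 0.15 in DIO-SC lungs. Degradation genes had medians of 0.10 in DIO-MS and 0.03 in RW-MS, and the other medians lay between -0.06 and 0.01.

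The diets were also compared within each kind of smoke, a comparison added after the data were examined. Between DIO-MS and RW-MS 7 of 32 members were called, all folding genes and all higher, while 1.21% of all genes were called and 0.613% were higher. Sdf2l1 was higher by 0.54 ± 0.11 (adjusted p 0.00566) and Dnajb9 by 0.26 ± 0.06 (adjusted p 0.0196), each with all 8 DIO-MS arrays above all RW-MS arrays. Dnajb9 read 10.95, 11.09 and 11.17 in DIO-MS lungs, against 10.60, 10.85 and 10.94 in RW-MS lungs. Creld2 (0.36), Manf (0.35), Hspa5 (0.32), Pdia3 (0.30) and Calr (0.25) were the others. All 13 folding genes lay above 0, with a median of 0.25 against -0.01 over all genes. Without the 5 arrays 5 calls held and Calr and Manf were lost, while 1.29% of all genes were called. With only DIO-MS-1 and DIO-MS-6 left out 0 members were called. The share of all genes called in that fit is not given here, so this loss cannot be set against that of other genes. Of the heat shock genes 5 of 7 were higher in DIO-MS than in RW-MS lungs, and 2 of 7 without the 5 arrays, and the part of that list was not tested.

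Between DIO-SS and RW-SS 1 of 32 members was called, while 0.976% of all genes were called. It was Hyou1, which read 9.22, 9.37 and 9.66 in DIO-SS lungs, against 8.93, 9.05 and 9.29 in RW-SS lungs. The difference was 0.35 ± 0.09 (adjusted p 0.0469), and its call held in 24 of the 48 fits with 1 array left out. It also held without the 5 arrays, where 2.99% of all genes were called. All 13 folding genes again lay above 0 (median 0.16, against -0.00 over all genes).

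None of the 4 sensor genes was called in any of the 11 comparisons. Ern1 read 6.81 to 7.43, Atf6 9.01 to 9.67, Eif2ak3 8.70 to 9.30 and Xbp1 11.94 to 12.50 over all arrays, and the group ranges overlapped throughout. With all arrays, the differences of the sensor genes between groups ran from -0.17 to 0.10. Dnajc3, an inhibitor of Eif2ak3, the ligase gene Syvn1 and its partner Sel1l, Derl3, the pseudokinase gene Trib3, Asns, which makes asparagine, and Sesn2, which restrains mTORC1, were likewise called in no comparison with all arrays. Asns ran from 8.86 to 9.15 in DIO-MS and from 8.87 to 9.12 in DIO-SC lungs, with a median of 8.88 in DIO-SS lungs. In RW animals Asns read 8.87, 8.93 and 9.04 in RW-MS, 8.78, 8.92 and 9.51 in RW-SS and 8.92, 8.97 and 9.13 in RW-SC lungs. The values of Asns thus overlapped between all groups, and the 1 high value, 9.51, was on RW-SS-6.

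Among animals of the same group, members varied together with Hspa5 to different degrees. Each array's deviation from its group mean was correlated over the 48 arrays, which share the array-wide normalization, in 61 pairs with Hspa5 or Asns. The p-values come from permutation within groups and are adjusted over the 61. Genes outside the members were not correlated, so the counts do not show that members varied together more than other genes did. With Hspa5, 8 of 31 members passed by both coefficients. They were Manf (r 0.78, rho 0.74), Pdia6 (r 0.76, rho 0.65), Creld2 (r 0.72, rho 0.63), Xbp1 (r 0.68, rho 0.56), Ddit3 (r 0.64, rho 0.54), Pdia3 (r 0.62, rho 0.61), Calr (r 0.58, rho 0.57) and Derl2 (r 0.52, rho 0.40). For Manf the permutation p was 1e-05 by both coefficients, the smallest that 100000 permutations can give, or 0.00012 and 0.0003 after adjustment. For Derl2 the adjusted permutation p-values were 0.006 and 0.045. Leaving out the 2 arrays farthest from the median gave 0.77 for Manf, 0.69 for Pdia6, 0.60 for Xbp1 and 0.37 for Derl2. After removal of the 5 arrays, r was 0.73 for Manf, 0.68 for Pdia6, 0.70 for Creld2, 0.56 for Xbp1, 0.58 for Ddit3, 0.47 for Pdia3, 0.52 for Calr and 0.33 for Derl2.

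**Figure D5:**
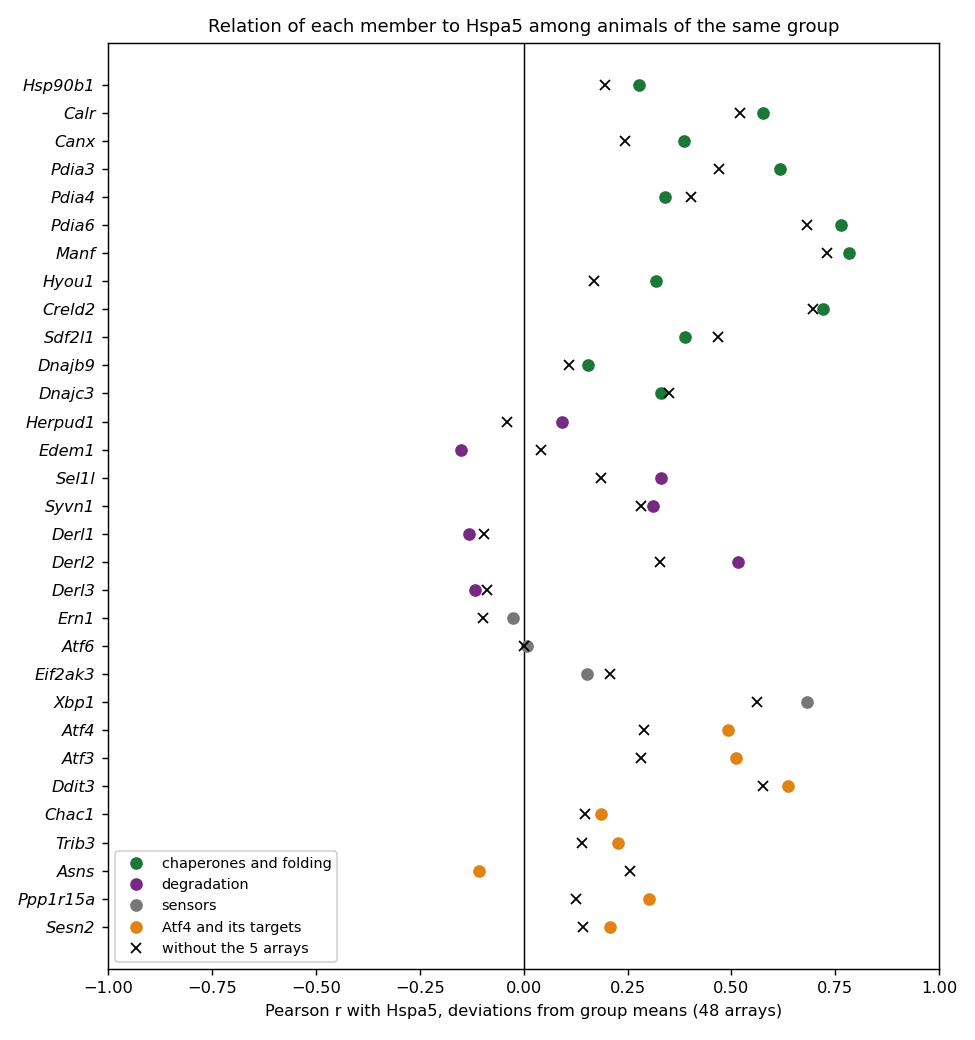
Pearson r (horizontal axis) between each member (rows, coloured by role) and Hspa5, from deviations from group means over 48 arrays, with crosses for the values without the 5 arrays. Manf, Pdia6 and Creld2 are at 0.72 to 0.78 and stay at 0.68 to 0.73 without the 5 arrays, while Edem1 and Derl1 lie below 0.

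Xbp1 was called in no comparison of groups with all arrays, yet it varied with Hspa5 among animals of a group. With Asns as the other anchor 0 of 30 members passed by both coefficients, with r from -0.28 (Hsp90b1) to 0.29 (Chac1). The Asns deviations hold the 1 high value on RW-SS-6. Without the 5 arrays r ran from -0.39 (Hsp90b1) to 0.51 (Pdia6), with Creld2 at 0.50, Xbp1 at 0.44 and Chac1 and Ddit3 at 0.42. These values without the 5 arrays were not tested. Over all pairs of members, the median within-group r was 0.29 among the 13 folding genes (78 pairs) and 0.29 among the Atf4 group (28 pairs), 0.14 between these groups, and -0.08 among the 7 degradation genes (21 pairs). Herpud1 and Edem1, which moved opposite ways with mainstream smoke, correlated with Hspa5 at 0.09 and -0.15.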

How the data were processed

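RNA of whole lungs was measured with Affymetrix arrays, 1 per sample. The deposited values are log2 signals made by the authors with RMA, per the submitters' processing notes; neither the version of RMA nor whether it ran on all 48 arrays at once was stated (not given in the sources used here). Total RNA was labelled with the one-cycle kit, per the labels' protocols. The values ran from 2.50 to 15.3 and array medians from 7.82 to 7.94. Of 22690 probe sets, 64 were controls, and the 20380 that carry 1 gene symbol were reduced to 12393 genes by the highest mean over 48 arrays. Several probe sets existed for 20 of the 32 members.

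Groups came from the sample titles. For replicates 7 and 8 of RW-MS and of RW-SS the source label carries number 5 or 6 instead; they were taken as separate animals by their titles and because the labels state 8 biological replicates a group, which was not tested. Group means were fitted with limma 3.58.1 (R 4.3.3, lmFit and eBayes, no trend, not robust) on all 48 arrays, and p-values were adjusted by Benjamini-Hochberg over 12393 genes in each of 11 comparisons. The self-test on simulated data, which held no outlying arrays, recovered its largest shifts. Its recovery of shifts as small as most of the members' differences is not given here. Alternatives were arrays centred on their medians, the mean of all probe sets, probe sets not marked as matching several transcripts, the lower 25% of genes left out, a trended and robust prior, the replicate number as a block, and arrays left out. Correlations used scipy 1.17.1 and pandas 2.3.3, figures matplotlib 3.10.9. Members, gene lists and tests were chosen with earlier results of these data known. All members are described by role, and of the further pathway genes some called ones with large differences are named. The number of animals limits the precision.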

Additional observations from a re-analysis of the deposited data

Results flagged for a closer look

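In 15 of 192 sets of a member's 8 values in a group, the highest or lowest array lay farther from its neighbour than Dixon's 95% limit for 8 values allows; chance gives about 1 in 20. Of these, 3 were on DIO-SC-7, where Hspa5 was low at 12.15 (others 12.43 to 12.68), Herpud1 was low at 11.74 (others 12.24 to 12.59) and Edem1 was high at 11.11 (others 9.09 to 9.48). Another 3 were on RW-SS-6, where Pdia3 was low at 11.93 (others 12.27 to 12.51) and Asns, at 9.51, and Sesn2, at 7.89, were high (others 8.78 to 9.04 and 7.71 to 7.79). Both arrays are among the 5 that stood apart, and both carry fat markers, as does DIO-SC-3.

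The remaining 9 were on arrays that did not stand apart. In DIO-SS lungs Hspa5 was high on DIO-SS-1 (12.45), Herpud1 was high on DIO-SS-6 (12.08), and DIO-SS-7 had high Pdia3 (12.66) and low Xbp1 (12.00). In RW-SC lungs Creld2 was high on RW-SC-1 (9.73), Sdf2l1 was low on RW-SC-3 (7.32), Dnajb9 was high on RW-SC-5 (11.12) and Asns was high on RW-SC-6 (9.13). In RW-MS lungs Atf3 was high on RW-MS-7 at 8.70, while the other arrays of that group lay between 7.78 and 8.08. DIO-MS-1 and DIO-MS-6, which share high Atf3, were not marked by this measure, because each is the other's near neighbour.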

How the results depend on the processing

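Of the 62 calls of a member in a comparison, 40 held in all 48 fits that left out 1 array. Without the 5 arrays that stood apart, 9 members were called in DIO-SC against RW-SC, 9 in DIO-MS against DIO-SC, 10 in RW-MS against RW-SC, 11 in DIO-SS against DIO-SC, 5 in RW-SS against RW-SC and 2 in the test of diet under sidestream smoke. The shares of all genes called were then 9.55%, 18%, 24.3%, 9.23%, 4.69% and 1.25% in that order. Leaving out DIO-MS-1 and DIO-MS-6 alone, chosen after seeing the data, gave 5 in RW-SS against RW-SC, 7 in DIO-MS against DIO-SS and 0 in DIO-MS against RW-MS. Centring arrays on their medians gave 1 in RW-SS against RW-SC. The mean of all probe sets gave 3 in DIO-SS against DIO-SC, 5 in RW-MS against RW-SS and 0 in DIO-SS against RW-SS. Unmarked probe sets alone, which leave 27 members, gave 5 and 0 in the last 2 of these. For settings other than leaving out the 5 arrays, the shares of all genes called are not given here.

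With 1 array left out, also chosen after seeing the data, the counts ran from 4 to 5 in DIO-SC against RW-SC, 10 to 16 in DIO-MS against DIO-SC, 4 to 8 in RW-MS against RW-SC, 3 to 11 in DIO-SS against DIO-SC, 1 to 5 in RW-SS against RW-SC, 10 to 12 in DIO-MS against DIO-SS, 6 to 11 in RW-MS against RW-SS, 3 to 7 in DIO-MS against RW-MS and 0 to 1 in DIO-SS against RW-SS, and were 0 in both tests of the diet difference. The count of 11 came without DIO-SC-7, that of 3 in DIO-SS against DIO-SC without DIO-SC-4 or DIO-SS-2, and that of 3 in DIO-MS against RW-MS without DIO-MS-1.

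Signs changed with the probe set in 7 cases. With the mean of all probe sets Atf4 in RW-MS against RW-SC became 0.0335 and Derl1 in DIO-MS against DIO-SS 0.0822. With unmarked probe sets alone Derl1 became 0.24 in DIO-MS against DIO-SS, -0.0737 in DIO-SS against DIO-SC and -0.0282 in RW-MS against RW-SC, Hyou1 became 0.0678 in RW-SS against RW-SC, and Xbp1 became 0.0146 in DIO-SS against DIO-SC. The cause was not tested.

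The deviations of animals with the same replicate number had a mean r of 0.015 over 120 pairs (lowest -0.388), against 0.00011 for animals with other numbers. Of 48 arrays, 9 correlated best with their own number. These values were not tested, so a pairing by number is not excluded. With the replicate block the counts were 5, 15, 5, 7, 2, 11 and 8 in the comparisons shown in the plot of differences (DIO-SC against RW-SC, DIO-MS and RW-MS against filtered air, DIO-SS and RW-SS against filtered air, DIO-MS and RW-MS against sidestream) and 0 in DIO-SS against RW-SS. The trended and robust prior gave 5, 15, 7, 6, 3, 11 and 8 in that order. Dim probe sets limit what can be seen of small changes.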
